A study of Mus musculus with 6 samples.

Results

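Muscle, liver and brain restricted microRNAs (miRNAs) were examined on arrays of mouse blood progenitors, to see which miRNAs known from other tissues, and which of their precursor probes, gave signal there. The members are the mouse-named probes that carry the names miR-1, miR-133, miR-206, miR-208 or miR-499 (muscle), miR-122 (liver), or miR-9, miR-124, miR-128, miR-129, miR-137, miR-138 or miR-219 (brain), with any letter, arm or copy. They numbered 35 probes for 13 miRNA numbers, of 1083 mouse-named probes and 2990 probes in all. Muscle had 15 probes, liver 2 and brain 18. Of the 35, 15 have names ending in -P, read here as probes of the precursor hairpin, a reading the labels do not define.

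The cells were bone marrow progenitors sorted as Lin-cKit+, from 10-week-old female C57BL/6 mice. The cKO group (n = 3 mice) had the genotype given as Rprtf/f, Mx1-Cre+, and the Ctrl group (n = 3 littermates) had Rprtf/f, Mx1-Cre-. Both carried the floxed Raptor alleles and both received 7 injections of 400 µg polyinosinic:polycytidylic acid (pIpC), with cells taken 10 days after the last. Raptor is an essential subunit of the kinase complex mTORC1, and Mx1-Cre is switched on by interferon in many tissues, so deletion is not limited to blood cells. The comparison asked whether miRNA levels differ between these genotypes. Loss of mTORC1 signalling in the sorted cells was not measured here, and only the cKO group carried Cre. No probe used here reads Raptor itself.

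A miRNA is cut from a hairpin precursor, and its seed, bases 2 to 8, guides it to messenger RNAs. miR-1, miR-133 and miR-206 are made in heart or skeletal muscle, and miR-1 and miR-206 favour myogenic differentiation. miR-208a, miR-208b and miR-499 lie within myosin heavy chain genes. miR-122 is the dominant miRNA of hepatocytes. miR-9 and miR-124 are miRNAs of neural progenitors and neurons, miR-138 acts at dendritic spines, miR-137 in neuron maturation and miR-219 in oligodendrocyte differentiation.

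The mature sequences below, from RefSeq on mouse build GRCm38.p6, show the brain miRNAs whose probes gave signal on every array, with the seed in capitals. Older names without an arm were taken to mean the main arm, and the letters of the array's own probes are not used here.
miR-128-3p: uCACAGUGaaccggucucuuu
miR-129-5p: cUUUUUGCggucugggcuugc
miR-138-5p: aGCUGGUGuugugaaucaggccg
miR-138-1-3p: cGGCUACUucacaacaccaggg
miR-219a-5p: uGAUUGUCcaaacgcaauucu
miR-9-5p: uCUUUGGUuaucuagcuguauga
Where a miRNA has several copies the first is placed: miR-128-3p at chr1:128202404-128202424 within the span of R3hdm1, miR-129-5p at chr6:29022624-29022644, miR-138-5p at chr9:122682898-122682920, miR-138-1-3p at chr9:122682936-122682957 and miR-9-5p at chr3:88215613-88215635, all on the plus strand, and miR-219a-5p at chr17:34025052-34025072 on the minus strand.
The next set holds members whose mature probes stayed at the level of random sequence on at least 5 of 6 arrays. Of these, miR-208a and miR-208b share 1 seed.
miR-206-3p: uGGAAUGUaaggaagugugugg
miR-133b-3p: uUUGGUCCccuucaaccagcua
miR-208a-3p: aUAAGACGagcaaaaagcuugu
miR-208b-3p: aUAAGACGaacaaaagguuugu
miR-499-5p: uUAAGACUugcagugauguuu
miR-137-3p: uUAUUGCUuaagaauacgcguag
Of these, miR-206-3p lies at chr1:20679055-20679076, miR-133b-3p at chr1:20682834-20682855, miR-499-5p at chr2:155622893-155622913 and miR-137-3p at chr3:118433901-118433923 on the plus strand, and miR-208a-3p at chr14:54949072-54949093 and miR-208b-3p at chr14:54975710-54975731 on the minus strand.
Sequences were matched for 13 of the 20 members that are not -P probes. The 6 of these above the random level on all 6 arrays had a median GC content of 52.1% (range 34.8% to 59.1%), against 34.8% (range 31.8% to 50.0%) for the other 7. For the -P members, of which 12 of 15 were matched to a hairpin, the medians were 49.7% over the 6 hairpins above that level and 54.1% over the 6 others. Every unmatched member was above the random level on fewer than 6 arrays. The second median of each pair thus covers only 7 of 14 such members that are not -P probes, and 6 of 9 -P members. It could move with the missing sequences. These are descriptions of few sequences, with no test.

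Background on each array was taken from 38 Randomer probes of random sequence, and a probe counted as above the random level when it exceeded their 95th percentile on that array, which lay between 0.377 and 0.463 in the deposited units of relative intensity. The highest Randomer probe reached 0.650 to 1.06. Intensities of different probes are not amounts that can be set against each other, so levels are read only against this background and between arrays. The mean log2 value of the Randomer probes differed by -0.04 between cKO and Ctrl (exact two-sided permutation p = 0.5, n = 3 each; the smallest p this design allows is 0.1). The labelled cell type was set against a list of blood miRNAs, of whose 17 probes 8 were above the random level on all 6 arrays (47.1%, where 40.6% of all mouse probes were), so this share does not mark the cells as blood. Among the 8 were miR-223, miR-142-5p, miR-155 and miR-181a, whereas both arms of miR-126, known from stem cells and endothelium, exceeded it on 1 array each. The other arm of miR-142, miR-142-3p, exceeded it on 2 arrays. In the test described further on, 2 of the 17 rose, miR-146a (mean 2.24 in cKO and 0.779 in Ctrl, limma adjusted p = 0.00154) and miR-155 (3.04 and 1.57, limma adjusted p = 0.0455), and none fell. Over all mouse probes 6.46% rose and 0.369% fell, and the count in this list was not tested against that. Of 6 probes on a list of erythroid miRNAs (miR-144, miR-451 and miR-486) 2 were above the random level on all 6 arrays (33.3%), and none passed the test. In a bulk sample, fewer cells of a type and less RNA per cell cannot be told apart.

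Of the 35 members, 12 were above the random level on all 6 arrays (34.3%), 7 on 1 to 5 arrays and 16 on none (45.7%). Among all mouse probes 40.6% were above it on all 6 arrays and 28.3% on none. By group, 13 members (37.1%) were above it on all 3 cKO arrays, where 51.8% of mouse probes were, and 12 (34.3%) on all 3 Ctrl arrays, where 41.6% were. Brain probes made up 10 of the 12, which is 10 of 18 brain probes (55.6%). The muscle probes gave 2 of 15 (13.3%) and the liver probes 0 of 2. These counts by tissue were not tested. The number of members above the level on a single array ran from 13 to 19, with 19 on cKO array 3, whose random level was the lowest of the 6. Against the stricter bound of the highest Randomer probe only the -P probe of miR-128a exceeded on all 6 arrays, 1 of 35, where 20.1% of all mouse probes did.

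**Figure D1:**
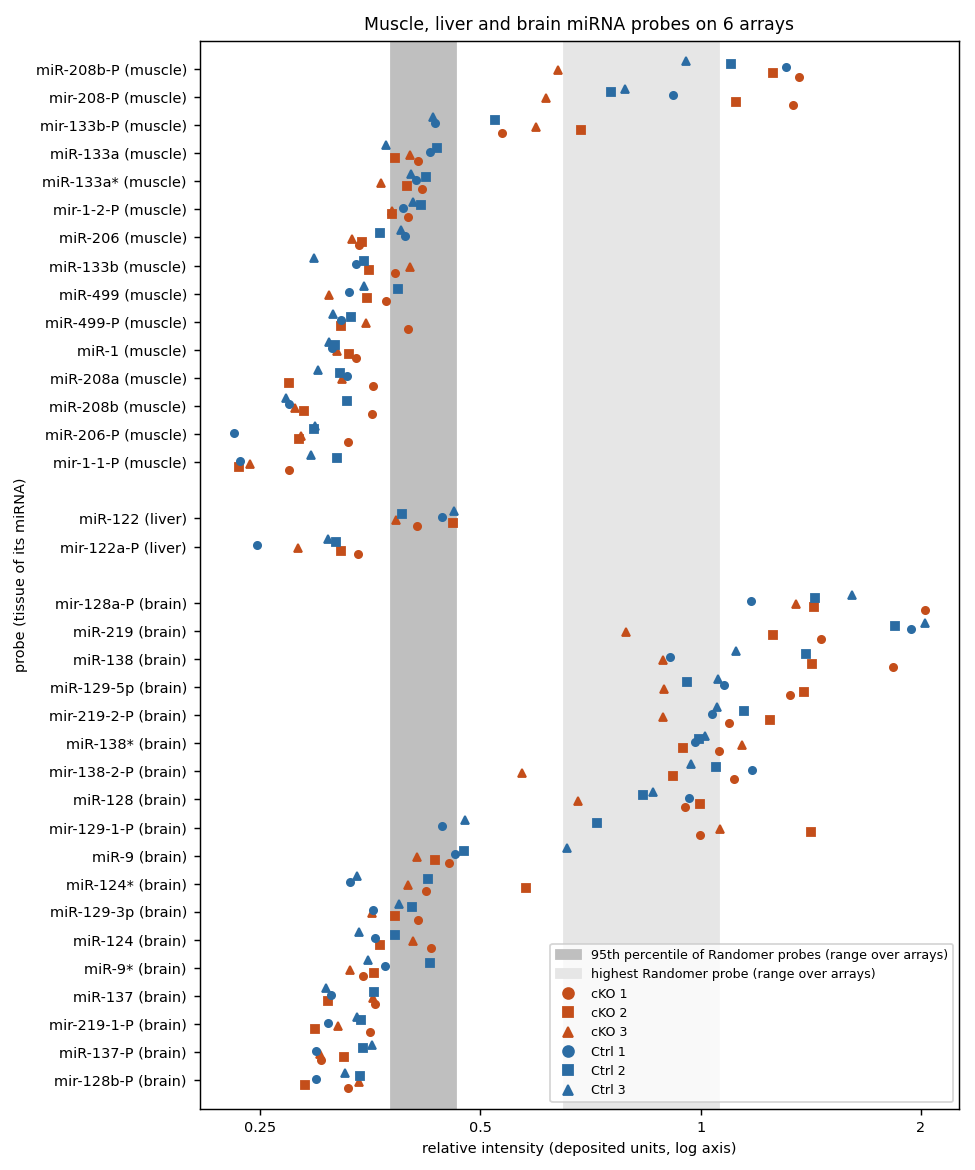
Relative intensity (log axis) of each of the 35 probes on 3 cKO and 3 Ctrl arrays, grouped by tissue; the dark band spans the random level over the arrays and the pale band the highest Randomer probe. Read against the level of its own array, 12 probes were above it on all 6 arrays, 10 of them brain probes.

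None of the 8 mature muscle probes was above the random level on all 3 arrays of either group. miR-1 read 0.338, 0.331 and 0.319 on cKO arrays 1 to 3 and 0.314, 0.317 and 0.311 on the Ctrl arrays. miR-206, a skeletal muscle miRNA, read 0.341, 0.345 and 0.334 in cKO and 0.395, 0.364 and 0.389 in Ctrl. Every cKO value of miR-1 was above every Ctrl value, and every cKO value of miR-206 below, but all 12 values lie under the random level of their array and have no order there. miR-499, encoded within the span of Myh7b, read 0.372, 0.350 and 0.310 in cKO and 0.331, 0.385 and 0.347 in Ctrl, also under the level on all 6 arrays. So did miR-208a, between 0.273 and 0.357, and miR-208b, between 0.271 and 0.356. miR-133a exceeded the level on 1 array of each group and miR-133b on 1 cKO array, with values from 0.371 to 0.436 and from 0.296 to 0.401.

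The precursor probes of the cardiac miR-208 pair did give signal. That of miR-208a, named mir-208-P on the array and matched to Mir208a within the span of Myh6, read 1.34, 1.12 and 0.615 in cKO and 0.918, 0.755 and 0.787 in Ctrl. The miR-208b precursor probe, within the span of Myh7, read 1.36, 1.26 and 0.638 in cKO and 1.31, 1.10 and 0.956 in Ctrl. Both were above the random level on all 6 arrays while both mature probes were above it on none, and in both the lowest value was that of cKO array 3, with the groups overlapping. Their log2 differences were 0.25 ± 0.26 and -0.11 ± 0.28 (cKO minus Ctrl, SE; limma adjusted p = 0.802 and 0.931). Without cKO array 3 the -P probe of miR-208a passed the test (log2 difference 0.58, limma adjusted p = 0.0489), and the difference of the miR-208b one turned to 0.24 (limma adjusted p = 0.614). With snoRNA and GAPDH scaling they were -0.33 and -0.69, neither past the test. Of the other muscle -P probes, those of miR-206, miR-499 and mir-1-1 were above the level on no array, and mir-1-2-P on 1 (0.398, 0.378 and 0.379 in cKO, 0.391, 0.414 and 0.404 in Ctrl).

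The -P probe of miR-133b stood at 0.535, 0.687 and 0.595 in cKO and at 0.434, 0.524 and 0.430 in Ctrl. All 3 cKO arrays were higher than all 3 Ctrl arrays, and 5 of the 6 values exceeded the random level, the exception being Ctrl array 3. The log2 difference of 0.39 ± 0.15 (SE; 95% interval 0.07 to 0.71) did not pass (limma adjusted p = 0.173). Mir133b lies on chromosome 1 (chr1:20682769-20682887), close to Mir206 at chr1:20679010-20679082, whose -P probe read between 0.230 and 0.329.

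For the liver, the mature probe of miR-122 read 0.409, 0.458 and 0.383 in cKO and 0.444, 0.391 and 0.461 in Ctrl. It exceeded the random level on 2 arrays of each group, the groups overlapped, and the log2 difference was -0.05 ± 0.12 (SE; limma adjusted p = 0.930). Its -P probe lay between 0.248 and 0.340, under the level on all 6 arrays.

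**Figure D2:**
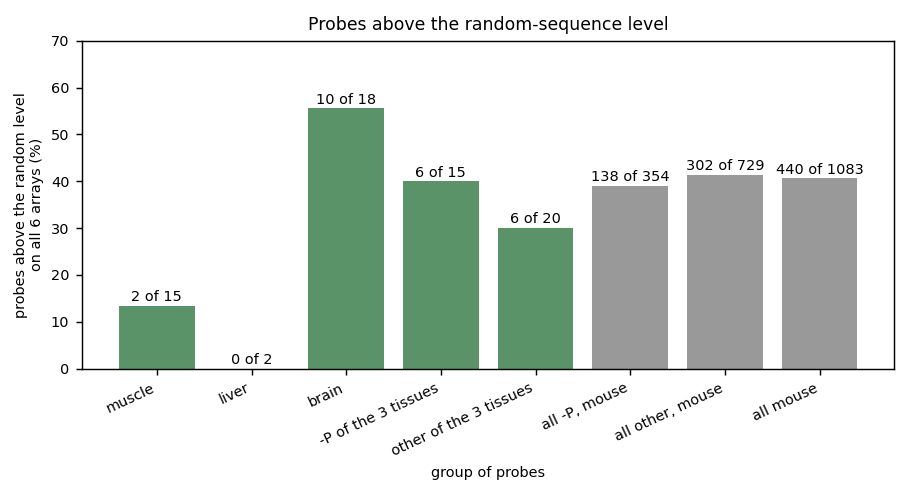
Share of probes above the random level on all 6 arrays (percent, bars from 0) by tissue and by probe kind, with all mouse probes in grey. The brain bar stands at 55.6%, the muscle bar at 13.3% and all mouse probes at 40.6%.

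Split by probe kind, the share among -P members lay near that of the array. Of 15 -P members 6 were above the random level on all 6 arrays (40.0%), where 39.0% of all mouse -P probes were. Of the 20 other members 6 were (30.0%), where 41.4% of all other mouse probes were; this difference was not tested. Copies of 1 miRNA differed: the -P probe of miR-128a, matched to Mir128-1 within the span of R3hdm1, exceeded the level on 6 arrays and that of miR-128b, matched to Mir128-2 within Arpp21, on none. Likewise the -P probe of the second miR-219 copy, within the span of Cercam, exceeded it on 6 arrays and that of the other copy on none.

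Tested between the groups, 1 of 35 members passed, the -P probe of miR-129-1, and it rose. None fell, and 34 did not pass. Over all 1083 mouse probes 70 rose (6.46%) and 4 fell (0.369%), 6.83% in either direction, so a count of 1 in 35 is near the background. The share of calls that were higher depended on scaling: quantile normalization gave 32 higher and 8 lower, and subtracting the mean of 6 snoRNA and GAPDH probes, themselves 0.58 higher in cKO on the log2 scale (exact two-sided permutation p = 0.1), gave 35 higher and 310 lower. At an unadjusted limma p under 0.05, 3 of 35 members were higher and 1 lower. Of all 1083 mouse probes 158 were higher and 23 lower at that mark, 16.7% in either direction. Groups lay fully apart for 4 members as higher (11.4%) and 3 as lower (8.57%), against 15.8% and 3.88% of all mouse probes. The median log2 difference over the members was -0.00087, and over all mouse probes it was 0.041.

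**Figure D3:**
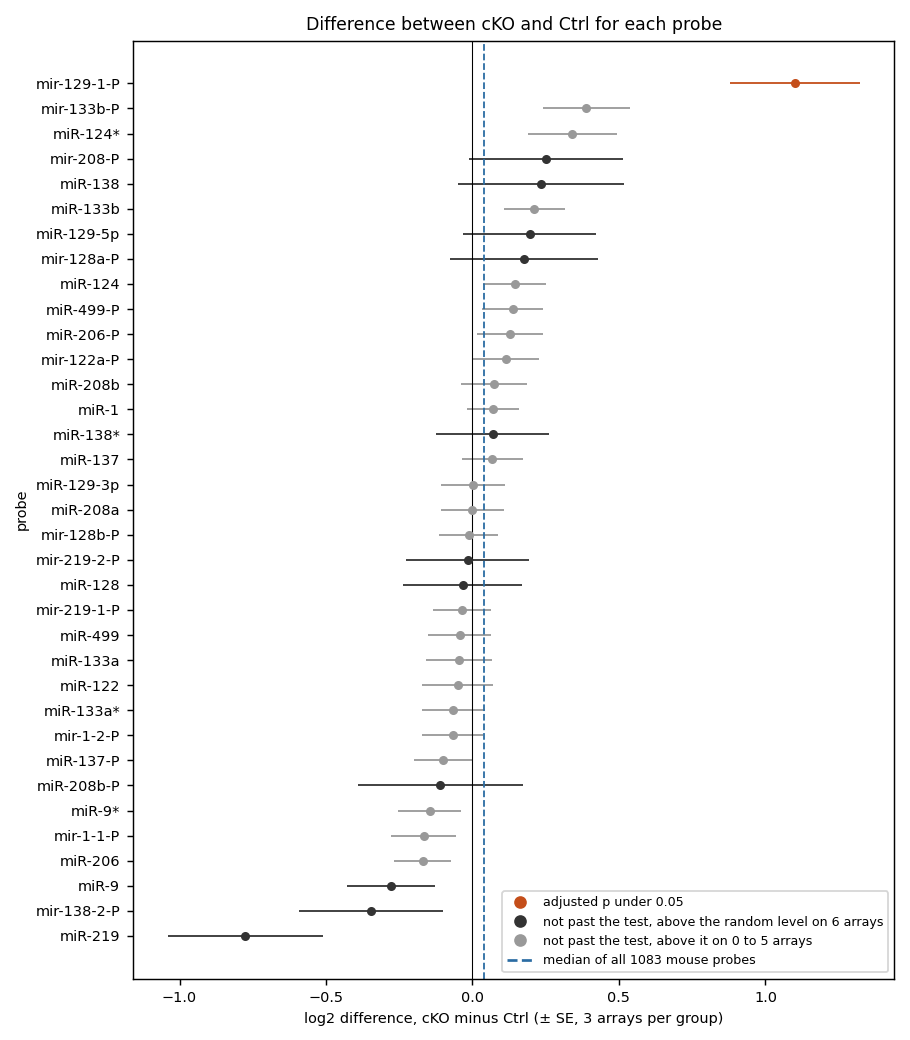
Log2 difference (cKO minus Ctrl, with its SE, 3 arrays per group) for each of the 35 probes, ordered by size, with the median of all mouse probes dashed. The -P probe of miR-129-1 stands at 1.10, the only one past the test, and miR-219 lies lowest at -0.78.

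miR-129 is a brain miRNA encoded at separate loci that share the 5p arm. On the array, mir-129-1-P read 0.999, 1.42 and 1.06 on cKO arrays 1 to 3 and 0.444, 0.722 and 0.477 on Ctrl arrays 1 to 3. All cKO arrays were higher than all Ctrl arrays, and all 6 values exceeded the random level, although those of Ctrl arrays 1 and 3 by little and below the highest Randomer probe. The means were 1.16 ± 0.225 and 0.548 ± 0.152 (SD, n = 3 each). On the log2 scale the probe rose by 1.10 ± 0.22 (SE), a fitted 2.14-fold (limma adjusted p = 0.00678). The call was lost without Ctrl array 1 (log2 difference 0.97, limma adjusted p = 0.0818), with snoRNA and GAPDH scaling (0.52, adjusted p = 0.125) and with values under 1 set to 1 (0.20, adjusted p = 0.359), and it was kept without any other single array. With 1 array left out the log2 difference ran from 0.95 to 1.32, and with the Randomer median subtracted it was 2.29 (limma adjusted p = 0.0424).

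The hairpin of Mir129-1 (chr6:29022619-29022691, plus strand, RefSeq, GRCm38.p6) is shown because its probe is the one that changed; capitals mark the annotated miR-129-5p.
Mir129-1 hairpin: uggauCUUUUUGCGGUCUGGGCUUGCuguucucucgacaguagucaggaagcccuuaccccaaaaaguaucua
Its 3p side matches miR-129-2-3p at 21 of 22 bases, the exception being C20U, counted from 1 at the 5′ end of miR-129-2-3p. The mouse-named mature probes of miR-129 did not pass the test. Its 5p arm is shared by the loci, and no member is named for the 3p arm of Mir129-1 alone. miR-129-5p read 1.32, 1.39 and 0.891 in cKO and 1.08, 0.957 and 1.05 in Ctrl, with overlapping groups (0.20 ± 0.23 in log2, limma adjusted p = 0.821). miR-129-3p read between 0.356 and 0.410, under the random level on all 6 arrays, so no change can be read from it.

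Human-named probes on the same arrays carry the same miRNA numbers, 36 of 1737, and 15 of them (41.7%) were above the random level on all 6 arrays, where 36.7% of all human-named probes were. In a separate fit over those 1737 probes, 2.01% passed, 1.90% as higher, and of the 36 only that of human miR-129*, the minor arm, did. It read 1.76, 2.67 and 1.70 in cKO and 0.647, 1.08 and 0.651 in Ctrl, with no overlap between the groups. The fitted rise was 2.60-fold (log2 difference 1.38 ± 0.27, SE; limma adjusted p = 0.0362). As on the mouse -P probe, array 2 was the highest of each group. Human-named miR-129-5p had a log2 difference of -0.50 ± 0.27 (limma adjusted p = 0.519), and human-named miR-129-3p read 0.392 to 0.443. Both kinds of probe were hybridised to the same RNA, so the 2 rises are not independent.

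**Figure D4:**
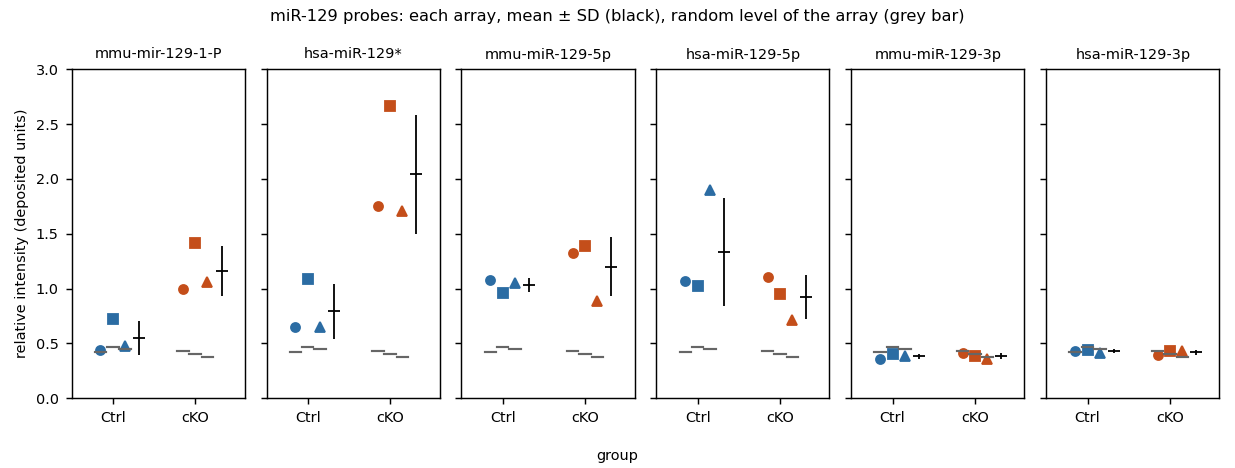
Relative intensity of 3 mouse-named and 3 human-named miR-129 probes on each array (points), with the mean and SD of each group in black and the random level of each array as a short grey bar. The mouse -P probe and human miR-129* are higher on all 3 cKO arrays than on all 3 Ctrl arrays, and the probes named miR-129-5p and miR-129-3p are not.

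miR-219, of oligodendrocytes, had the lowest difference among the members. It read 1.46, 1.25 and 0.790 in cKO and 1.94, 1.84 and 2.03 in Ctrl, so that every cKO array was below every Ctrl array. The means were 1.17 ± 0.343 and 1.94 ± 0.0916 (SD, n = 3 each), and the log2 difference of -0.78 ± 0.27 (SE; 95% interval -1.35 to -0.20) did not pass (limma adjusted p = 0.117). It passed as lower after quantile normalization (-1.19, limma adjusted p = 0.0204), with snoRNA and GAPDH scaling (-1.35, adjusted p = 0.00836) and with values under 1 set to 1 (-0.66, adjusted p = 0.0420); without cKO array 3 it was -0.52. Its second copy's -P probe read 1.09, 1.24 and 0.888 in cKO and 1.04, 1.14 and 1.05 in Ctrl, a log2 difference of -0.02 ± 0.21 (limma adjusted p = 0.981). The human-named miR-219-5p probe read 0.326 to 0.386, under the random level on all 6 arrays. Another human-named probe, miR-219-1-3p, read 9.11, 6.89 and 11.6 in cKO and 4.43, 7.88 and 4.05 in Ctrl, with overlapping groups (log2 difference 0.79 ± 0.33, limma adjusted p = 0.343).

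The other brain members with signal overlapped between the groups, miR-9 apart. The mature miR-138 probe read 1.83, 1.42 and 0.888 in cKO and 0.909, 1.39 and 1.12 in Ctrl, and miR-138*, its minor arm, 1.06, 0.946 and 1.14 against 0.982, 0.995 and 1.01. Their log2 differences were 0.24 ± 0.28 and 0.07 ± 0.19 (SE; limma adjusted p = 0.825 and 0.932). That of miR-138 was -0.00090 without cKO array 1 and 0.52 without cKO array 3, and -0.34 with snoRNA and GAPDH scaling. For the second miR-138 copy, the -P probe, within the span of Nup93, read 1.11, 0.917 and 0.571 in cKO and 1.18, 1.05 and 0.969 in Ctrl (-0.35 ± 0.24, limma adjusted p = 0.578). All 3 miR-138 probes were above the random level on all 6 arrays, which held for no other of the 13 numbers.

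miR-128, abundant in neurons, read 0.952, 0.998 and 0.679 in cKO and 0.964, 0.833 and 0.862 in Ctrl (log2 difference -0.03 ± 0.20, SE; 95% interval -0.47 to 0.40; limma adjusted p = 0.972). Its precursor probe for the a copy read 2.03, 1.43 and 1.35 in cKO and 1.17, 1.43 and 1.61 in Ctrl (0.18 ± 0.25, limma adjusted p = 0.854). For both the groups overlapped, and the intervals leave room for a change of up to 1.65-fold in the -P probe. miR-9 lay just over the random level: 0.453, 0.434 and 0.410 in cKO and 0.462, 0.475 and 0.657 in Ctrl. Every cKO array was below every Ctrl array, but the log2 difference of -0.28 ± 0.15 did not pass (limma adjusted p = 0.399), and all 6 values were under the highest Randomer probe. The difference was -0.12 without Ctrl array 3, and it passed as lower with snoRNA and GAPDH scaling (-0.86, limma adjusted p = 0.0352).

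The neuronal miRNAs miR-124 and miR-137 had no mouse-named probe above the random level on all 3 arrays of a group. miR-124* read 0.422, 0.577 and 0.398 in cKO and 0.332, 0.423 and 0.339 in Ctrl, above the random level on 2 cKO arrays and no Ctrl array. The groups overlapped, and the log2 difference of 0.34 ± 0.15 did not pass (limma adjusted p = 0.277); it was 0.18 without cKO array 2 and -0.24 with snoRNA and GAPDH scaling. miR-124 itself exceeded the level on 1 cKO array, with values from 0.341 to 0.428. miR-137 read 0.359, 0.309 and 0.357 in cKO and 0.312, 0.358 and 0.308 in Ctrl, all under the level, as were its -P probe and miR-9*. The 15 members not given by array lay between 0.230 and 0.436, 12 of them above the level on no array and 3 on 1 or 2, and none passed the test.

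Among the 12 members above the random level on all 6 arrays, cKO array 3 gave the lowest value for 9 (75.0%). Over the 440 mouse probes above it on all 6 arrays that array was the lowest for 33.0% and the highest for 28.2%. Both were the largest such shares of any array. cKO array 1 was the highest for 4 of the 12, and cKO array 2 for another 4. The spread within cKO was accordingly wide, as with the -P probe of miR-208b at 1.09 ± 0.392 against 1.12 ± 0.176 in Ctrl (SD, n = 3 each). The part of this array in the differences was not tested beyond the values without it that are given here.

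The same miRNA name did not always give the same reading from a mouse-named and a human-named probe. Of 24 names shared by a member and a human-named probe, 4 were above the random level on all 6 arrays with both probes, 13 with neither, 5 with the human-named probe only and 2 with the mouse-named probe only. Only equal names were paired, so miR-219 and miR-499 were not set against miR-219-5p and miR-499-5p in these counts. Human-named miR-124 read 4.96 to 6.00 in cKO and 5.05 to 5.65 in Ctrl, where the mouse-named probe exceeded the level on 1 array. Human-named miR-122 read 1.84 to 2.69 in cKO and 2.16 to 2.41 in Ctrl, and human-named miR-206 read 1.79 to 2.19 and 1.88 to 2.56, the mouse-named miR-206 probe being above the level on no array. In the other direction, mouse-named miR-9 was above it on 6 arrays and human-named miR-9 on none. For human-named miR-124, miR-122 and miR-206 the log2 differences were 0.01 ± 0.25, -0.05 ± 0.25 and -0.21 ± 0.25 (SE; limma adjusted p = 0.998, 0.987 and 0.854). The human-named miR-499-5p probe, which has no mouse-named probe of exactly that name, read 4.63, 3.65 and 1.62 in cKO and 3.31, 3.53 and 2.86 in Ctrl, with cKO array 3 again the lowest. Which probe of a name reads the named miRNA in these cells was not tested.

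**Figure D5:**
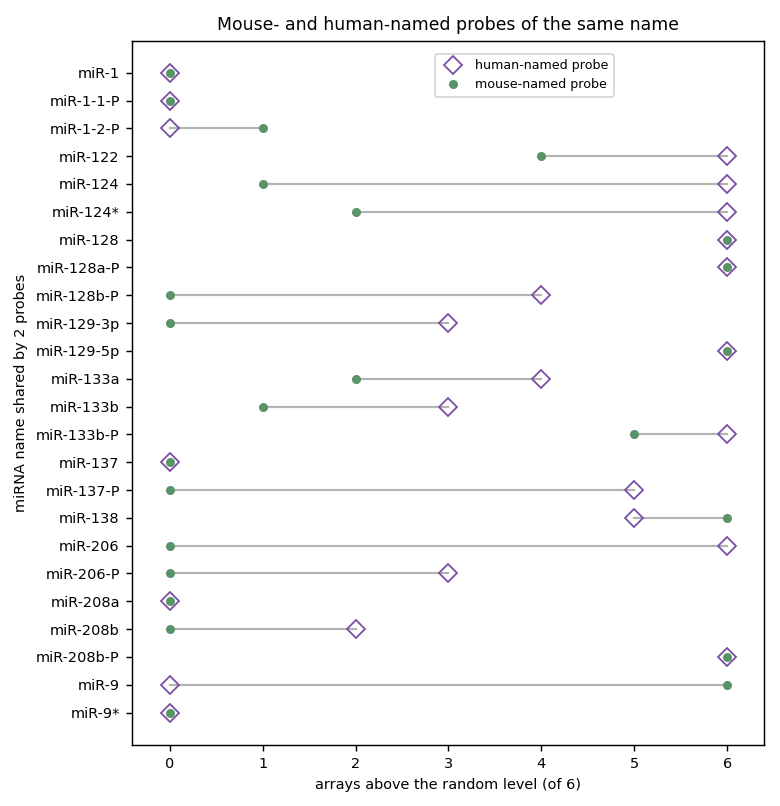
Number of arrays (of 6) on which the mouse-named probe (circle) and the human-named probe (diamond) exceeded the random level, for the 24 names that both carry. For miR-124, miR-124*, miR-122, miR-206 and miR-133b-P the human-named probe reached 6 and the mouse-named probe did not, and for miR-9 and miR-138 the reverse holds.

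Other tissue miRNAs were read from lists by number, beside the 40.6% of all mouse probes that were above the random level on all 6 arrays. Of 19 probes for further brain miRNAs (miR-7, miR-135, miR-153, miR-218, miR-326 and miR-488) 4 (21.1%) were above it on all 6 arrays and none passed the test, with a median log2 difference of 0.042. Of 7 further liver or gut probes (miR-192, miR-194 and miR-148a) 0 were, and of 8 pancreas and endocrine probes (miR-216, miR-217 and miR-375) 2 were; none passed. Of 10 smooth muscle and stromal probes (miR-143, miR-145, miR-199 and miR-214) 2 were (20.0%), and none passed. Of 13 epithelial probes (miR-141, miR-200, miR-203, miR-205 and miR-429) 0 were above on all 6 arrays and that of miR-203 rose (log2 difference 0.73 ± 0.18, SE; limma adjusted p = 0.0257), above the level on 3 cKO and 2 Ctrl arrays. The medians of these lists ran from 0.026 to 0.088, beside 0.041 for all mouse probes, of which 6.83% passed the test.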

How the data were processed

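From each mouse 5 µg of RNA was copied with biotin-tagged random octamers and read in 1 colour through streptavidin-Alexa647, per the labels' protocols. The deposited intensity values are linear; which image software or normalization made them is not given in the sources used here. Each array has 1 constant (829 to 987.5) that turns at least 99.97% of values into whole multiples of 0.25 scanner units (tolerance 0.01), with the highest at the 16-bit limit.

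Log2 of the deposited intensity was fitted over the 1083 mouse-named probes with limma 3.58.1 (R 4.3.3; eBayes with trend; two-sided; calls at a Benjamini-Hochberg adjusted p under 0.05), without further scaling, and tested on simulated data. Human-named probes had a fit of their own. Figures used Python 3.11.15 and matplotlib 3.10.9. The number of arrays limits precision.

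Members and lists were chosen with earlier results of these data known. Values by array are given for members past the test, those above the random level on all 6 arrays, the highest probe of each number and the 3 largest differences each way; others are named by range, and miR-1, whose groups did not overlap, was added after its values were seen. A pairing by replicate number is not given by the sample titles and was not used in the main fit. Deviations from the group means correlated at 0.104, 0.124 and 0.178 within numbers 1 to 3, and between -0.21 and 0.11 across numbers. These ranges overlap, so the values do not settle whether the numbers pair the samples. Alternatives were other scalings, floors, filters, the replicate block and each array left out.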

Additional observations from a re-analysis of the deposited data

Results flagged for a closer look

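A human-named probe, which the comparison of mouse probes does not use, was higher in cKO: the log2 difference of hsa-miR-129* was 1.38, and the cKO arrays lay above the Ctrl arrays in 3 of 3 against 3 of 3. It is listed because it carries the number of the single mouse member that rose.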

How the results depend on the processing

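Of the 1083 mouse probes, 6.83% passed limma's test; 3.69% did with quantile normalization and 31.9% with snoRNA and GAPDH scaling, which moved the median of all mouse probes to -0.54. With 1 array left out the share ran from 3.14% (without Ctrl replicate 1) to 11.9% (without cKO replicate 3); it was 4.25% without cKO replicate 2 and 4.43% without Ctrl replicate 3. The member count, 1, was 2 after quantile normalization, 13 with the snoRNA and GAPDH scaling (all lower, of which miR-219, miR-9 and the -P probe of the second miR-138 copy were above the random level on all 6 arrays), 0 without -P probes, and 0 to 2 with 1 array left out. The members' median difference was -0.58 with snoRNA and GAPDH scaling, 0.13 with the Randomer median subtracted and 0.13 with the floor at 1, where 15 and 10 members could be tested, and ran from -0.038 to 0.060 with 1 array left out. Members above background on all 3 arrays, 13 in cKO and 12 in Ctrl, were 3 and 3 against the highest Randomer probe and 6 and 6 without -P probes; with 1 array left out they ran from 13 to 15 in cKO and from 12 to 13 in Ctrl. With the replicate block 8.77% of mouse probes and 1 member passed, and no member's call changed. The -P probe of miR-129-1 kept its sign under all of these settings that tested it. Dim signal limits the reading of the 16 members under the random level on all 6 arrays.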
